A study of Mus musculus with 32 samples.

Results

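The transcripts described here are those of 8 genes by which liver cells burn fatty acids, all known targets of the nuclear receptor PPARA: Cyp4a10, Cyp4a14, Acot1, Cpt1a, Cpt2, Acadl, Acadm and Pdk4. They were chosen by name, and are 8 of the 8251 genes that at least 1 probe set on the array names alone. A probe set is a group of short DNA probes for one transcript, and 9 of the 12488 belonged to these genes. Cpt2 had a second probe set (161978_r_at), which averaged 3.04 on the log2 scale and lay above the 30th percentile of its own array on 0 of 32 arrays. It was therefore not tested, and every Cpt2 value below comes from the other probe set (95646_at).

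Messenger RNA was measured in 32 livers of male C57BL/6 mice aged 3 months, with a 1-colour Affymetrix array. Every mouse was homozygous for a floxed allele of Rps6, which encodes a protein of the small ribosomal subunit. Cre plus mice also carried the Mx-Cre transgene, whose interferon-responsive promoter acts in many cell types, and Cre minus mice did not. Polyinosinic-polycytidylic acid, which induces interferon, was injected to delete the floxed allele, and no source used here says whether Cre minus mice received it too. Partial hepatectomy, in which a surgeon takes out some of the liver lobes, came 0, 20, 30 or 40 h before a mouse's remaining liver was collected. In the order of these times, there were 4, 4, 3 and 5 Cre plus livers and 4, 4, 4 and 4 Cre minus livers. The labels name no sham-operated livers, so the effect of tissue removal and that of anaesthesia, feeding or elapsed time cannot be told apart. Values below are the authors' log2 values, and a difference of 1 on that scale is a 2-fold change.

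Rps6 itself read between 6.24 and 7.69 in the 16 Cre plus livers, against 10.99 to 11.82 in the 16 Cre minus livers, on a probe set that a pseudogene shares. Arrays came in batches PHX2 and PHX3, and each group had arrays in both, with 1 Cre plus liver at 30 h in PHX3 and 1 Cre minus liver at 40 h in PHX2. The mean correlation with the other arrays of the group was under 0.95 for 3 arrays, namely Cre plus 30 h A, Cre plus 40 h D and Cre minus 30 h C. Hepatocyte markers, 6 of the 8 listed being testable, averaged between 11.37 and 11.91 on every array. In whole liver, fewer cells of a type and less RNA per cell cannot be told apart.

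Fatty acids enter mitochondria as carnitine esters, through the successive action of CPT1A on the outer membrane and CPT2 on the inner one, and are then shortened by beta-oxidation, whose first step is made by acyl-CoA dehydrogenases of different chain-length preference. A side route in the endoplasmic reticulum, omega-oxidation, is begun by the CYP4A enzymes. In fasted liver, fatty acids bind PPARA, which pairs with RXR and raises transcription of all these genes, and after partial hepatectomy the remaining liver takes up fat from the blood while its cells prepare to divide.

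The upstream sequence of 6 of the 8 genes was in the RefSeq promoter table (GRCm38.p6), with Cyp4a10 and Cyp4a14 not among them. PPARA with RXR binds a direct repeat of a hexamer, in its ideal form AGGTCA given 2 times in the same direction with 1 base of any kind between the copies. Searched on both strands in the 250 bases before the listed transcript start, the whole repeat was in 0 of the 6 member windows and in 0.0335% of the 32851 windows in the table. The hexamer alone, AGGTCA or on the other strand TGACCT, was in 2 of the 6, Cpt1a and Acadm, and in 14% of all windows. It began 94 bases before the start in Cpt1a and 249 bases before it in Acadm, on the minus strand relative to the gene in both. The Cpt1a window lies inside the gene's listed span, chr19:3322326-3385735, so it precedes a transcript start within the gene. A match describes letters in these windows and is not a measured binding site. Shown are Acadl, whose transcript passed the test after surgery in both genotypes, Acadm and Cpt1a for the hexamer, and Pdk4, which varied most between livers of a group among the 4. Each is printed 5′ to 3′ on the gene's own strand, with the hexamer in capitals.
Acadl (chr1:66863310-66863559, minus strand): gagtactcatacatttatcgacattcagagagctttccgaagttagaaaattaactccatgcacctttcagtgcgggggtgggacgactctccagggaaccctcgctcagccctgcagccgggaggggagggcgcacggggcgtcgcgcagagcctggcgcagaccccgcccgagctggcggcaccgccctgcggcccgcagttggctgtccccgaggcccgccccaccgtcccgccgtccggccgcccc
Acadm (chr3:153944644-153944893, minus strand): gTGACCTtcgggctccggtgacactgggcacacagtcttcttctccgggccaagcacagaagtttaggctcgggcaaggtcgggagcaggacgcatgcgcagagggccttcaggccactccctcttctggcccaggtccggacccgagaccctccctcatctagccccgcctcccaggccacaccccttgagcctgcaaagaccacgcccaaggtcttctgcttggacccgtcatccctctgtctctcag
Cpt1a (chr19:3323051-3323300, plus strand): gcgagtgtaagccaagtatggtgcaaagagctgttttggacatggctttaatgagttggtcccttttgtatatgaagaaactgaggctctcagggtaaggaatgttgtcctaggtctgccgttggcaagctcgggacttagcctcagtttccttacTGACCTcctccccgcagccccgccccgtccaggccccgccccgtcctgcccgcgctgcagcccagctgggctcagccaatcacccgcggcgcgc
Pdk4 (chr6:5496279-5496528, minus strand): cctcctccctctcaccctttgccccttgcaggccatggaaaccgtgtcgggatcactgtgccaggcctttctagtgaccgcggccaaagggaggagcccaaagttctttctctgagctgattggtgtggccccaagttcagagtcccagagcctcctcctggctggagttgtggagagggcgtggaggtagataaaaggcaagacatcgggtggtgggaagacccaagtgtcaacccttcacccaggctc

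After surgery 2 members passed the test, both at 20 h: Acadl in both genotypes and Cyp4a10 in Cre minus livers. In Cre plus livers 1 of the 8 members, Acadl, rose at 20 h (limma, Benjamini-Hochberg adjusted p under 0.05), where 9.07% of all 9249 tested probe sets were called and 3.55% rose. In Cre minus livers 2 of the 8, Cyp4a10 and Acadl, rose at 20 h, where 7.37% were called and 3.33% rose. The differences were positive for 7 of 8 members in Cre plus livers, with a median of 0.86, and for 8 of 8 in Cre minus livers, with a median of 1.22. Over all 6786 genes tested, the medians were −0.02 in Cre plus livers and −0.03 in Cre minus livers. At an unadjusted p under 0.05 the counts were 2 in Cre plus livers and 6 in Cre minus livers. Of the 9249 probe sets, 2151 had such a p in Cre plus livers and 1969 in Cre minus livers.

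At 30 and 40 h no member passed the test against 0 h in either genotype, in limma at the same threshold. At 30 h 9.89% of probe sets were called in Cre plus and 3.14% in Cre minus mice, and at 40 h 9.66% and 4.77%. At an unadjusted p under 0.05 there were 2 members in Cre plus and 6 in Cre minus mice at 30 h, and 3 in each genotype at 40 h. At 30 h 2264 of the 9249 probe sets had such a p in Cre plus and 1489 in Cre minus mice. At 40 h 2197 and 1538 did. Over the members the median difference was 0.56 in Cre plus and 0.84 in Cre minus mice at 30 h, then 0.65 and 0.51 at 40 h. Between 30 and 40 h no member passed in Cre plus livers, where 0% of probe sets were called, or in Cre minus livers, where 1.02% were, and none had an unadjusted p under 0.05 in either genotype. Such a p was reached by 480 probe sets in Cre plus livers and 807 in Cre minus livers. The comparisons with 0 h within a genotype share their 0 h livers.

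Counted by overlap, every liver of the later time lay above every 0 h liver in Cre plus mice for 2 members (20 h), 2 members (30 h) and 0 members (40 h). That held for 7.04%, 10.9% and 4.41% of all tested probe sets at those times. In Cre minus mice it held for 5, 3 and 5 members in the same order of times, against 8.47%, 4.30% and 6.24% of probe sets. One further member, Pdk4, lay wholly below its 0 h livers at 40 h in Cre minus mice, as did 8.93% of probe sets.

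**Figure D1:**
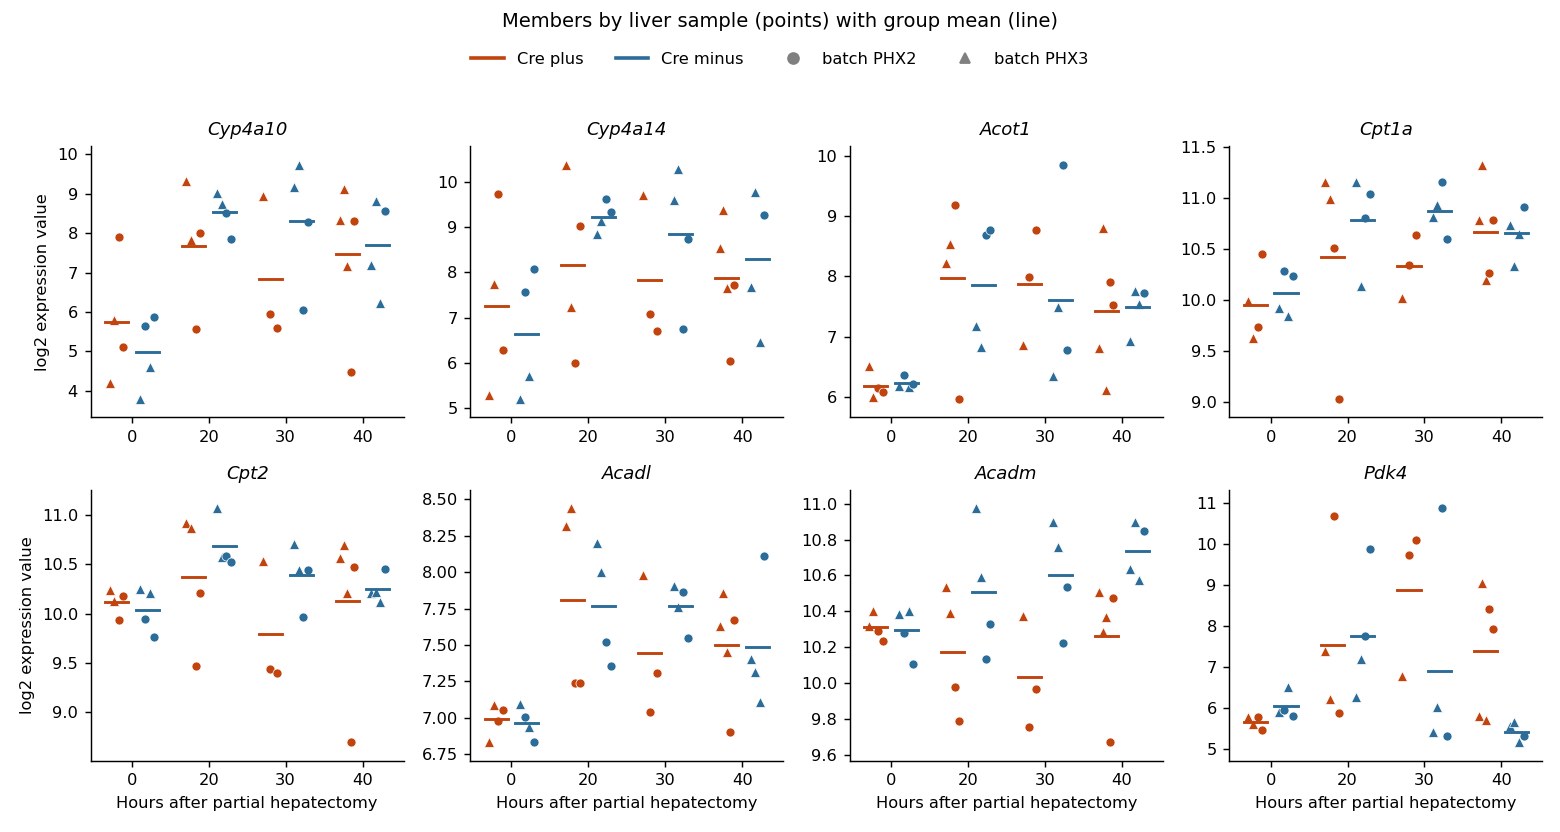
Log2 expression value of each of the 8 genes (vertical axis, scaled per gene) in every liver at 0, 20, 30 and 40 h after partial hepatectomy, with Cre plus livers left of Cre minus livers, circles for batch PHX2, triangles for PHX3 and a line at the group mean. Acot1, Acadl and Pdk4 lie in narrow bands at 0 h and spread widely later, while Cyp4a10 and Cyp4a14 are already spread at 0 h.

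Between genotypes no member passed the test at any time. The share of probe sets called between Cre plus and Cre minus livers was 0.0649%, 0.292%, 0.281% and 5.35% at 0, 20, 30 and 40 h. At an unadjusted p under 0.05 limma gave 0 members at 0 h and 1 each at 20, 30 and 40 h, which was Acadm each time. Such a p was reached by 140, 409, 1048 and 1563 of the 9249 probe sets at 0, 20, 30 and 40 h. Nor did any member pass in the interaction, the genotype difference at a later time minus that at 0 h, for which 0%, 0.0108% and 0.584% of probe sets were called at 20, 30 and 40 h, with 0, 1 and 1 members at an unadjusted p under 0.05. Over all probe sets, 132, 409 and 563 had such an unadjusted p in the interaction. With each array weighted by its fit to its group, 5 members passed between genotypes at 30 h, namely Pdk4, higher in Cre plus livers, and Acadm, Cyp4a10, Acadl and Cpt2, lower in them. The weights greatly raised the calls over all probe sets too, as counted in the closing section, so this count is not particular to the members. Without the 3 arrays of low correlation, 4 passed at 30 h: Pdk4 (3.94, adjusted p = 0.0185), Acadm (−0.71, 0.0104), Cyp4a10 (−3.37, 0.0323) and Cpt2 (−0.92, 0.0202). That setting was chosen after the data were seen and leaves 2 Cre plus livers at that time, both from PHX2. The share of all probe sets called in it is not given here.

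Among the enzymes of omega-oxidation, Cyp4a10 (92600_f_at, chr4:115518287-115533649, GRCm38.p6) showed the largest called difference of the set. At 0 h it read 4.19, 5.80, 7.90 and 5.12 in Cre plus livers and 3.80, 5.66, 4.60 and 5.86 in Cre minus livers. At 20 h it read 9.31, 7.82, 5.57 and 8.01 in Cre plus livers and 9.03, 8.74, 8.50 and 7.84 in Cre minus livers. All 4 Cre minus livers at 20 h thus lay above all 4 at 0 h, while 2 of the 4 Cre plus livers at 20 h, at 7.82 and 5.57, lay below the highest Cre plus liver of 0 h, at 7.90. The difference of 20 h minus 0 h was 3.55 (SE 0.95, 11.7-fold, adjusted p = 0.0218, limma) in Cre minus livers and 1.92 (SE 0.95, adjusted p = 0.223) in Cre plus livers. The interaction at 20 h was −1.63, with a 95% interval of −4.38 to 1.13 (adjusted p rounding to 1), so the 2 differences were not shown to be unequal.

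Within PHX2 alone the 20 h minus 0 h difference of Cyp4a10 was 0.27 in Cre plus livers and 2.41 in Cre minus livers, and within PHX3 alone it was 3.57 and 4.69. The call in Cre minus livers was lost without Cre minus 0 h A (adjusted p = 0.0937), Cre minus 0 h C (0.0672) or Cre minus 20 h C (0.0630), and in PHX2 alone (0.453). The probe set's suffix is Affymetrix's mark for one shared by members of a gene family, so transcripts of neighbouring Cyp4a genes may contribute to the value.

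At 30 h Cyp4a10 read 8.94, 5.95 and 5.58 in Cre plus livers and 9.16, 9.73, 6.06 and 8.28 in Cre minus livers. At 40 h it read 8.32, 9.11, 7.17, 4.47 and 8.31 in Cre plus livers and 7.18, 8.82, 6.23 and 8.57 in Cre minus livers. All 8 of these Cre minus livers lay above the highest Cre minus liver of 0 h, at 5.86, while 4 of the 8 Cre plus livers lay above the highest Cre plus liver of 0 h, at 7.90. The difference from 0 h in Cre minus livers was 3.33 (30 h, adjusted p = 0.0515) and 2.55 (40 h, adjusted p = 0.140), and in Cre plus livers it was 1.18 and 1.65 (adjusted p = 0.516 and 0.273). The genotype difference was 0.77, −0.85, −1.37 and −0.12 at 0, 20, 30 and 40 h.

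Cyp4a14 (101103_at, chr4:115486200-115496158) lies next to Cyp4a10 and encodes an enzyme of the same reaction. It spanned 5.27 to 9.74 in Cre plus and 5.20 to 8.07 in Cre minus livers at 0 h, a 22.1-fold and a 7.31-fold range. At 0 h the Cre minus livers split by batch, with 7.56 and 8.07 in PHX2 and 5.20 and 5.71 in PHX3, and the Cre plus livers did not, with 9.74 and 6.27 in PHX2 and 5.27 and 7.74 in PHX3. At 20 h it spanned 6.00 to 10.38 in Cre plus livers and 8.85 to 9.63 in Cre minus livers, so the Cre minus livers held a 1.72-fold range above all 4 of their 0 h values. The difference of 20 h minus 0 h was 2.60 (SE 1.01, adjusted p = 0.124) in Cre minus livers and 0.90 (SE 1.01, adjusted p = 0.683) in Cre plus livers, and neither passed the test.

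Acot1 (103581_at, chr12:84009502-84017670) encodes the cytosolic thioesterase that splits long-chain acyl-CoA. At 0 h its values were tight, at 6.51, 6.01, 6.15 and 6.09 in Cre plus livers and 6.18, 6.37, 6.16 and 6.21 in Cre minus livers. At 20 h they were 8.23, 8.54, 9.19 and 5.97 in Cre plus livers and 7.18, 6.83, 8.69 and 8.76 in Cre minus livers. All 4 Cre minus livers at 20 h lay above all 4 at 0 h, and so did 3 of the 4 Cre plus livers, the exception being replicate D. The difference was 1.79 (SE 0.63, adjusted p = 0.0738) in Cre plus and 1.63 (SE 0.63, adjusted p = 0.118) in Cre minus livers. Without Cre plus 20 h D it was 2.59 in Cre plus livers (adjusted p = 0.00413), and without Cre minus 30 h C, which is not in the comparison, its adjusted p was 0.0357. On the array Cre plus 20 h D skeletal muscle markers, all 5 being testable, averaged 6.94, against 5.26 to 5.52 on the other 3 of its group, and their part in its low Acot1 value was not tested.

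At 30 h Acot1 spanned 6.86 to 8.76 in Cre plus livers and 6.35 to 9.85 in Cre minus livers, and at 40 h 6.12 to 8.80 and 6.93 to 7.76. Its genotype difference was −0.04, 0.12, 0.16 and −0.14 at 0, 20, 30 and 40 h. At 40 h the 95% interval of that difference ran from −1.37 to 1.09, so a difference of about 2-fold in either direction was not excluded.

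Of the carnitine shuttle, Cpt1a (93320_at, chr19:3322326-3385735), whose enzyme sets the rate of mitochondrial uptake, spanned 9.62 to 10.45 in Cre plus and 9.84 to 10.28 in Cre minus livers at 0 h. At 20 h it spanned 9.03 to 11.16 and 10.13 to 11.16, at 30 h 10.01 to 10.64 and 10.59 to 11.16, and at 40 h 10.19 to 11.32 and 10.33 to 10.91. The lowest value of the 20 h livers was again Cre plus D. At 30 and 40 h all Cre minus livers lay above the highest Cre minus liver of 0 h, and the differences were 0.80 (SE 0.32, adjusted p = 0.195) and 0.58 (SE 0.33, adjusted p = 0.383). In Cre plus livers the 20 h minus 0 h difference was 0.48 (adjusted p = 0.419) and, without replicate D, 0.96 (adjusted p = 0.0157).

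Cpt2 (95646_at, chr4:107903982-107923589) spanned 9.93 to 10.24 in Cre plus and 9.76 to 10.25 in Cre minus livers at 0 h. At 20 h the Cre plus livers split, with 10.92 and 10.87 in PHX3 and 9.47 and 10.21 in PHX2, while the Cre minus livers read 11.07, 10.58, 10.58 and 10.52. All 4 Cre minus livers lay above their 0 h livers, on average by 0.64 (SE 0.27, adjusted p = 0.156). The Cre plus difference was 0.25 (SE 0.27, adjusted p = 0.665), made of −0.21 within PHX2 and 0.71 within PHX3. At 30 and 40 h Cpt2 overlapped its 0 h values in both genotypes.

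Of the acyl-CoA dehydrogenases, Acadl (95425_at, chr1:66830839-66863309), which acts on long chains, passed the test at 20 h in both genotypes. At 0 h it read 6.83, 7.09, 6.98 and 7.05 in Cre plus livers and 7.09, 7.002, 6.94 and 6.83 in Cre minus livers. At 20 h it read 8.32, 8.44, 7.24 and 7.24 in Cre plus livers and 8.20, 8.0, 7.52 and 7.36 in Cre minus livers. In both genotypes all 4 livers at 20 h lay above all 4 at 0 h, and the 2 higher ones were those of PHX3. The rise was 0.82 (SE 0.23, 1.77-fold, adjusted p = 0.0271, limma) in Cre plus livers and 0.80 (SE 0.23, 1.74-fold, adjusted p = 0.0359) in Cre minus livers. Within PHX2 it was 0.22 in Cre plus livers and 0.52 in Cre minus livers, and within PHX3 1.42 and 1.08.

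These 2 calls rested on few arrays. The Cre plus call was lost without Cre plus 0 h A or B, or 20 h A or B (adjusted p between 0.0647 and 0.135). The Cre minus call was lost without any 1 of the 4 Cre minus livers at 0 h, or without Cre minus 20 h A, B or C (adjusted p between 0.0513 and 0.0983). The difference stayed positive in each, between 0.65 and 0.80 in Cre plus livers and between 0.71 and 0.87 in Cre minus livers. At 30 h Acadl read 7.98, 7.04 and 7.31 in Cre plus livers and 7.90, 7.76, 7.86 and 7.55 in Cre minus livers, where all 4 again exceeded the 0 h livers (difference 0.80, SE 0.23, adjusted p = 0.0596). Its genotype difference was between −0.28 and 0.06 over the 4 times.

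Acadm (92581_at, chr3:153922353-153944643), the medium-chain enzyme, was the steadiest member and the one whose genotype difference came nearest the threshold. At 0 h it read 10.32, 10.40, 10.29 and 10.23 in Cre plus livers and 10.39, 10.28, 10.40 and 10.11 in Cre minus livers. At 40 h it read 10.51, 10.29, 10.37, 9.67 and 10.47 in Cre plus livers and 10.63, 10.90, 10.57 and 10.85 in Cre minus livers. The groups overlapped at 0 h and did not at 40 h, where all 5 Cre plus livers lay below all 4 Cre minus livers, as for 3.08% of tested probe sets. The difference of Cre plus minus Cre minus was 0.02, −0.33, −0.52 and −0.43 at 0, 20, 30 and 40 h (SE 0.15, 0.15, 0.16 and 0.14), with adjusted p rounding to 1 at 0 h and of 0.960, 0.151 and 0.0719 later. From 20 h on it was negative within PHX2 (−0.35, −0.52 and −0.78) and within PHX3 (−0.32, −0.45 and −0.31).

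Acadm passed the test at 40 h without Cre plus 40 h E (−0.53, adjusted p = 0.0180) and after quantile normalization (−0.44, adjusted p = 0.0432). The difference of 40 h minus 0 h was −0.08 (SE 0.14, adjusted p = 0.769) in Cre plus and 0.36 (SE 0.15, adjusted p = 0.184) in Cre minus livers, neither past the threshold. The interaction at 40 h was −0.44, with a 95% interval of −0.86 to −0.03 and an adjusted p of 0.741. At 40 h the macrophage markers, 9 of 10 being testable, averaged 6.74 to 7.44 in Cre plus livers and 7.57 to 8.23 in Cre minus livers, and the erythroid markers, 4 of 5, 6.54 to 7.84 and 8.26 to 8.99. Both lists differed in the same direction as Acadm, and their part in its difference was not tested.

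**Figure D2:**
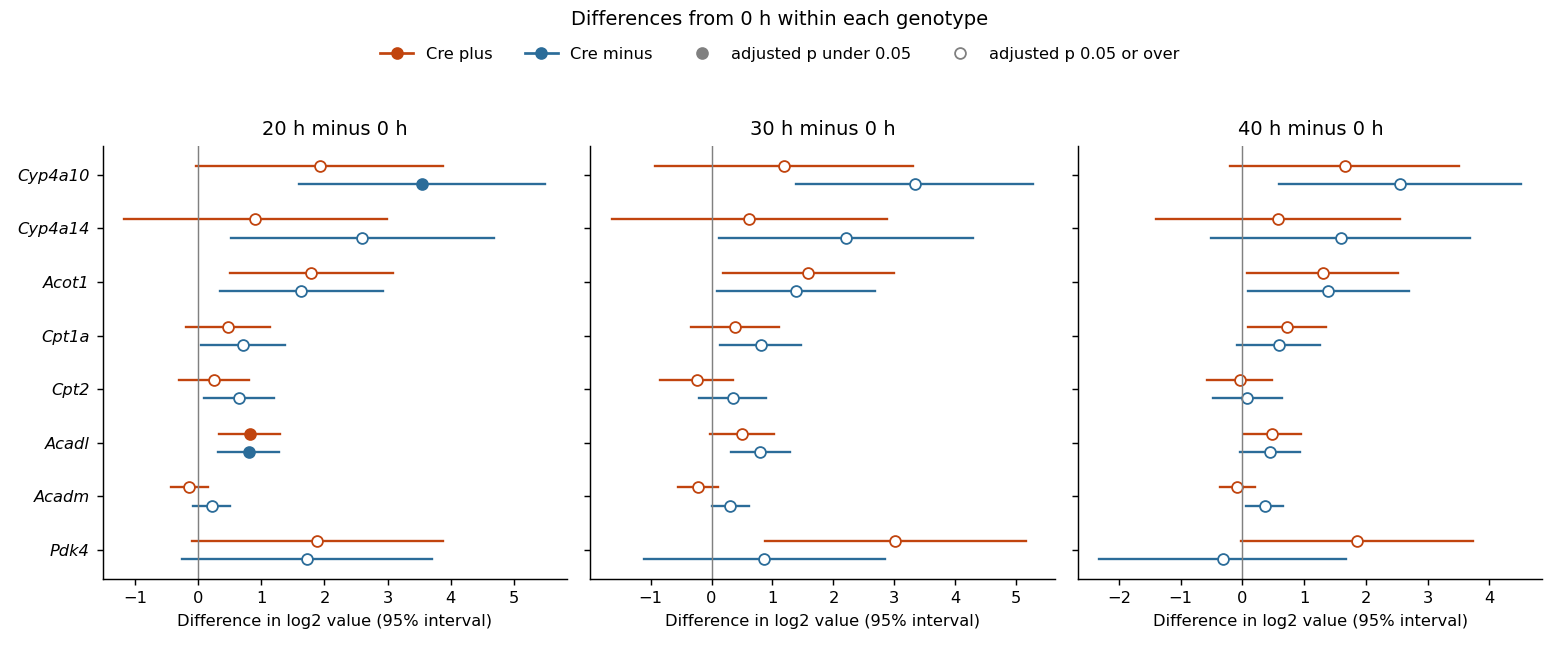
Difference in log2 value of 20, 30 and 40 h minus 0 h for each gene (horizontal axis, 95% interval), Cre plus above Cre minus, with filled circles where the adjusted p was under 0.05. The filled circles are Acadl at 20 h in both genotypes, at 0.82 and 0.80, and Cyp4a10 at 20 h in Cre minus livers, at 3.55.

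Pdk4 (102049_at, chr6:5483351-5496278) encodes a kinase that switches off pyruvate dehydrogenase, which spares glucose while fat is burned. At 0 h it read 5.77, 5.61, 5.77 and 5.46 in Cre plus livers and 5.90, 5.95, 6.52 and 5.79 in Cre minus livers. At 20 h it read 7.39, 6.21, 10.69 and 5.88 in Cre plus livers and 6.26, 7.19, 7.75 and 9.87 in Cre minus livers. A narrow band at 0 h thus gave way to a 28.2-fold range in Cre plus and a 12.2-fold range in Cre minus livers. All 4 Cre plus livers at 0 h lay below all 4 Cre minus livers, though by −0.39 only (SE 0.96, adjusted p rounding to 1), as did 1.36% of probe sets.

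At 30 h Pdk4 read 6.78, 9.73 and 10.10 in Cre plus livers and 5.42, 6.02, 10.87 and 5.32 in Cre minus livers. At 40 h it read 5.80, 9.06, 5.71, 8.42 and 7.93 in Cre plus livers and 5.55, 5.66, 5.16 and 5.31 in Cre minus livers. By 40 h every Cre minus liver was below every Cre minus liver of 0 h, while 3 of 5 Cre plus livers were still above 7, and all 5 exceeded all 4 Cre minus livers, as did 3.03% of probe sets. The genotype difference was −0.22 at 20 h, 1.76 (SE 1.04, 95% interval −0.38 to 3.91, adjusted p = 0.543) at 30 h and 1.79 (SE 0.92, 3.45-fold, 95% interval −0.10 to 3.67, adjusted p = 0.326) at 40 h. Within PHX2 it was 1.82 and 2.86 at 30 and 40 h, and within PHX3 1.07 and 1.40.

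In Cre plus livers Pdk4 exceeded its 0 h values in every liver at 20 and 30 h, with differences of 1.89 (adjusted p = 0.242) and 3.02 (SE 1.04, adjusted p = 0.0646), while the 40 h difference was 1.85 (adjusted p = 0.218). The 30 h difference passed the test without Cre minus 30 h C (3.07, adjusted p = 0.0228) or Cre plus 20 h C (3.06, adjusted p = 0.0414), arrays outside that comparison which add to the common spread. On the array Cre minus 30 h C, at 10.87 the highest of all, the 4 testable adipocyte markers of 8 averaged 8.18, the highest of its group, whose range was 6.99 to 8.18, and their part in its Pdk4 value was not tested. At 0 h these markers averaged more, 8.27 to 8.44 in Cre plus and 8.33 to 8.51 in Cre minus livers. Pdk4 at 0 h spanned 5.46 to 5.77 and 5.79 to 6.52 in the same order. The 3 arrays highest in skeletal muscle markers, Cre plus 40 h A (7.75), Cre plus 20 h D (6.94) and Cre minus 20 h D (6.43), had Pdk4 at 5.80, 5.88 and 9.87.

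**Figure D3:**
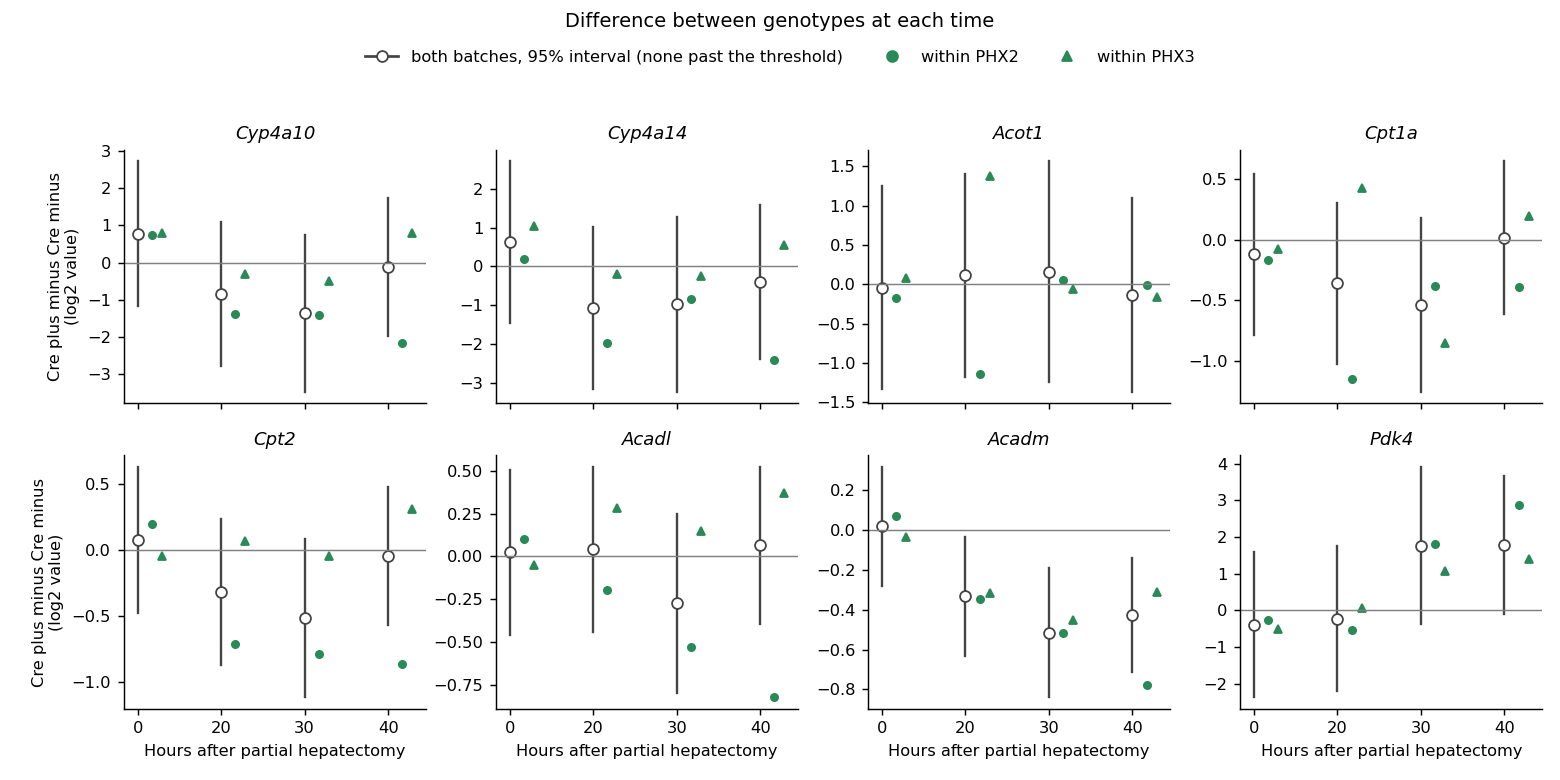
Difference in log2 value of Cre plus minus Cre minus livers (vertical axis, scaled per gene) at 0, 20, 30 and 40 h, with 95% intervals, and the same difference within PHX2 (circles) and PHX3 (triangles). Acadm lies below 0 from 20 h on in both batches, Pdk4 lies above 0 at 30 and 40 h in both, and no difference passed the test.

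The livers of one group differed from each other more in these transcripts than in most others. After group and batch means were removed, the residual SD was 1.53 for Cyp4a14, 1.45 for Pdk4, 1.43 for Cyp4a10 and 0.95 for Acot1, against a median of 0.18 over all tested probe sets. Of the tested probe sets, 99.8% had a smaller residual SD than Acot1, and a larger share still had a smaller one than each of the other 3. Cpt1a had 0.48, Cpt2 0.40 and Acadl 0.35, which between 87.8% and 95.3% of probe sets did not reach. Acadm had 0.21, above 62.9% of them.

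Over the 24 livers taken after surgery, the deviations of 11 of the 28 pairs of members were related at an adjusted p under 0.05 by Pearson's r, all positively, and whether the pairs form groups was not tested. The share of such pairs among all tested probe sets is not given here, so the relations are not shown to be particular to the members. Cyp4a10 and Cyp4a14 deviated together with r = 0.911 (Spearman's rho 0.903, permutation p adjusted over 36 relations 0.00012), as did Cyp4a10 and Cpt2 with r = 0.820 (rho 0.779, adjusted permutation p = 0.00012). Transcripts of neighbouring Cyp4a genes may contribute to the Cyp4a10 probe set, and their part in its relation with Cyp4a14 was not tested. Acot1 went with Pdk4 (r = 0.838, rho 0.750, adjusted permutation p = 0.00012) and with Cpt1a (r = 0.761, rho 0.725, adjusted permutation p = 0.00027). The smallest raw p that 100000 permutations can give is 1e-05. Removing the group and batch means leaves fewer independent values than livers, so these p-values are somewhat too small.

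Each of these relations held within both batches and without the 2 livers farthest from the median. Acot1 and Pdk4 had r = 0.895 within PHX2 (11 livers), 0.731 within PHX3 (13 livers) and 0.748 without those 2 livers. For Cyp4a10 and Cyp4a14 the values were 0.914, 0.947 and 0.907, for Cyp4a10 and Cpt2 0.926, 0.580 and 0.759, and for Acot1 and Cpt1a 0.802, 0.718 and 0.647. Acadl and Cpt2 (r = 0.688, rho 0.681), Acadm and Cpt2 (0.683, rho 0.598) and Acadl and Acadm (0.674, rho 0.601) also passed, with adjusted permutation p of 0.00192, 0.00192 and 0.00226, and were positive within each batch. The remaining pairs were Acadm and Cyp4a10 (r = 0.633, rho 0.565, adjusted permutation p = 0.00419), Cpt2 and Cyp4a14 (0.608, rho 0.588, 0.0048), Acadl and Cyp4a10 (0.517, rho 0.422, 0.0343) and Cpt1a and Pdk4 (0.510, rho 0.449, 0.0390). By rho the last 2 did not pass (adjusted permutation p = 0.124 and 0.0964), and Acadl and Cpt1a passed by rho (0.574, adjusted permutation p = 0.016) but not by r (0.488, 0.0507).

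For Cyp4a10 and Pdk4, both targets of PPARA, no relation passed the threshold. Their r was −0.415 (rho −0.376, adjusted permutation p = 0.121), and its sign differed between batches, at −0.700 within PHX2 and 0.249 within PHX3. For no member among the 8 did a relation pass with the 3′ minus 5′ difference of the Actb control probe sets, a measure of RNA degradation, the largest r being −0.252 for Cyp4a10 (rho −0.210, adjusted permutation p = 0.386). The sign of that relation differed between batches for Pdk4, with r = 0.577 in PHX2 and −0.480 in PHX3, and for Acot1, with 0.556 and −0.533.

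**Figure D4:**
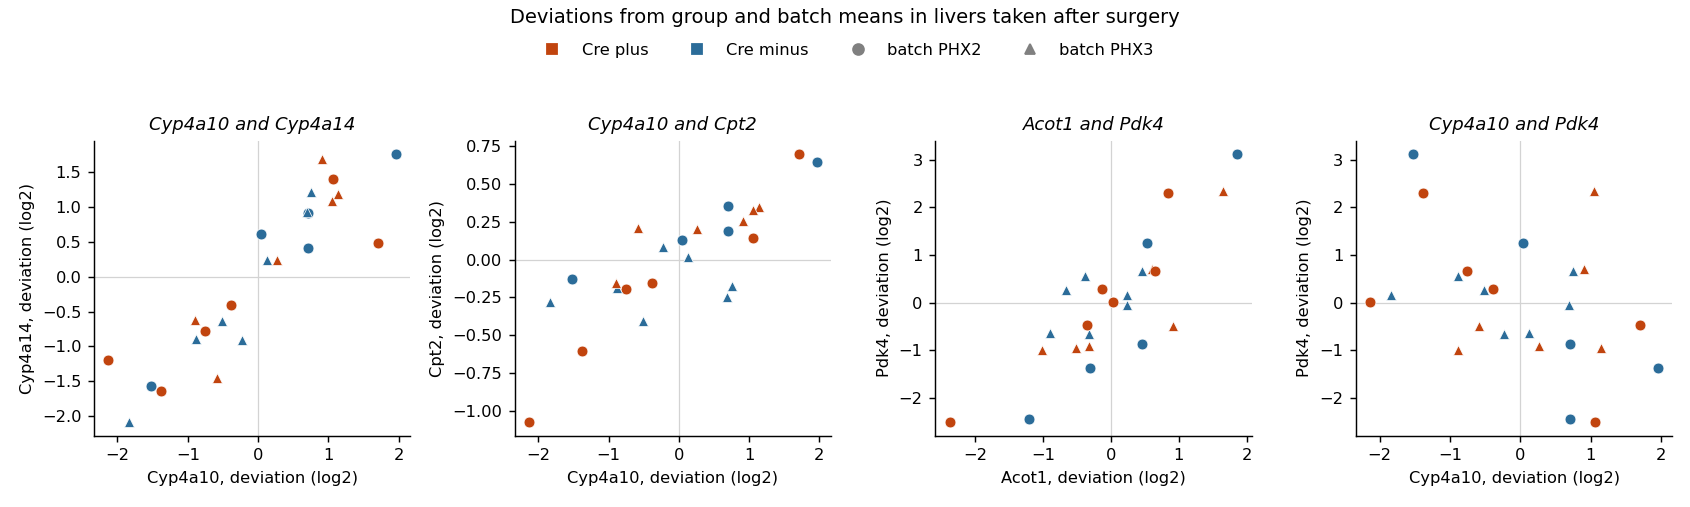
Deviation of each of the 24 livers taken after surgery from its group and batch mean (both axes in log2 value) for 4 pairs of genes, coloured by genotype, with circles for PHX2 and triangles for PHX3. Cyp4a10 rises with Cyp4a14 (r = 0.911) and with Cpt2 (r = 0.820), Acot1 with Pdk4 (r = 0.838), and Cyp4a10 with Pdk4 shows no common slope in the batches.

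The genes whose levels over all 32 arrays were most like each member, by Pearson's r after removal of batch means and as a description only, were Cyp4a14 for Cyp4a10 (0.926), then Rps4x (0.830) and Aprt (0.824). For Cyp4a14 they were Cyp4a10, Aprt (0.749) and Ech1 (0.719), the last an enzyme of fatty acid oxidation. Acot1 was most like Slc22a5 (0.858), the carnitine transporter, Map3k6 (0.850) and Cidec (0.846), a lipid droplet protein. Pdk4 was most like Rhpn2 (0.926), Txnip (0.906) and Slc25a47 (0.903). Acadm had Dhrs4 (0.829), Hadhb (0.827), a subunit of the mitochondrial trifunctional protein, and Nap1l1 (0.822), and Acadl had Cmpk1 (0.886), Ppp2r5c (0.862) and Hsdl2 (0.857). Cpt1a had Fabp2 (0.793), Hacd3 (0.772) and Cln6 (0.747), and Cpt2 had Wdr77 (0.853), Apba3 (0.839) and Seh1l (0.831).

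The list of mitochondrial beta-oxidation, which holds members too, had genes called in both directions after surgery. Of its 26 genes, 21 were testable. At 20 h 3 rose and 2 fell in Cre plus livers, and 2 rose and 4 fell in Cre minus livers, Acadl being among the risers in both. Over all probe sets 9.07% were called and 3.55% rose in Cre plus livers, and 7.37% and 3.33% in Cre minus livers. Eci2, an enoyl-CoA isomerase, rose by 1.18 in Cre plus and by 1.18 in Cre minus livers, and Slc22a5 rose by 1.13 in Cre plus livers. Hadh, which makes the third step of the cycle, fell by 0.66 in Cre plus and by 0.71 in Cre minus livers, and Echs1, which makes the second, fell by 0.51 and 0.69. Acsl5 and Acads fell in Cre minus livers, by 0.65 and 0.40. Between genotypes at 40 h, where 5.35% of all probe sets were called, 0 genes of the list were higher and 2 lower in Cre plus livers, Hadh by −0.63 (8.72 ± 0.24 against 9.37 ± 0.16, SD, n = 5 and 4) and Acaa2 by −0.31 (12.35 ± 0.20 against 12.68 ± 0.09).

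In peroxisomal beta-oxidation, 13 of 22 listed genes were testable. At 20 h in Cre minus livers Ehhadh and Pex11a rose by 1.75 and 1.64, and Phyh fell by 0.38. Cat, which encodes catalase, fell at 20 h by 1.09 in Cre minus livers and by 1.05 in Cre plus livers. Over all probe sets 7.37% were called at 20 h in Cre minus livers and 9.07% in Cre plus livers. In the list of omega-oxidation, 11 of 16 being testable, Cyp4a10 was the only riser at 20 h in Cre minus livers, and Cyp4b1, Adh5 and Cyp4f13 fell, by 0.57, 0.41 and 0.41. Of 6 testable genes of pyruvate dehydrogenase and its kinases, Pdk1 fell in Cre minus livers at 20, 30 and 40 h (by 0.82, 1.01 and 1.35) and in Cre plus livers at 30 and 40 h (by 0.78 and 0.82). Pdha1, the catalytic subunit that PDK4 phosphorylates, rose in Cre plus livers at 20, 30 and 40 h (by 0.51, 0.47 and 0.49). At 40 h it was higher in Cre plus livers by 0.60 (8.94 ± 0.14 against 8.37 ± 0.21, SD, n = 5 and 4). Against 0 h, 9.89% and 9.66% of all probe sets were called at 30 and 40 h in Cre plus livers. In Cre minus livers the shares were 3.14% and 4.77%, and between genotypes at 40 h the share was 5.35%.

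Of other PPARA targets, 24 of 32 listed were testable, among them genes of lipid storage. At 20 h 3 rose and 1 fell in Cre plus livers, and the same counts held in Cre minus livers, against the 9.07% and 7.37% of all probe sets called. Cidec rose by 3.75 in Cre plus livers and 3.66 in Cre minus livers, Plin2, which coats lipid droplets, by 1.75 and 1.68, and Angptl4, a secreted inhibitor of lipoprotein lipase, by 1.08 and 0.81. Fads1, a desaturase, was the one that fell, by 0.82 in Cre plus livers and 0.81 in Cre minus livers. At 30 and 40 h Plin2 and Angptl4 were still higher than at 0 h in Cre plus livers (1.77 and 1.27 for Plin2, 1.19 and 0.93 for Angptl4), Cidec was higher at 30 h by 4.002 (adjusted p = 0.0240), and no gene of the list rose in Cre minus livers. Fads1 was lower than at 0 h at 30 and 40 h in Cre plus livers (−0.98 and −1.14). Cyp8b1, an enzyme of bile acid synthesis, fell at 40 h, with differences of −2.05 in Cre plus livers and −2.43 in Cre minus livers. Of all probe sets, 9.89% and 9.66% were called at 30 and 40 h in Cre plus livers, and 3.14% and 4.77% in Cre minus livers. Between genotypes at 40 h the share was 5.35%. At 40 h Fabp1, the abundant fatty acid binding protein of hepatocytes, was lower in Cre plus livers by −1.03 (11.56 ± 0.24 against 12.58 ± 0.16, SD, n = 5 and 4, adjusted p = 0.0111), and so was Fads1, by −0.82. The macrophage and erythroid markers given above were lower in the same livers. The hepatocyte markers had a median over arrays of 11.53 in Cre plus livers (11.37 to 11.87) and 11.75 in Cre minus livers (11.60 to 11.87), and of them Ttr was lower in Cre plus livers, by −1.24 (adjusted p = 0.0227). The part of these markers in the 40 h differences was not tested. Of PPARA and its partners, 16 of 23 being testable, 0 passed between genotypes at any time, and Lpin1, a coactivator of PPARA, rose at 20 and 30 h in Cre plus livers by 2.16 and 2.01. Hnf4a at 30 h and Lpin2 at 40 h were the other members of that list that rose in Cre plus livers, by 0.60 and 1.01, and 0 changed in Cre minus livers in limma. Here too, calls in Cre plus livers alone do not show that the genotypes differed.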

How the data were processed

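The authors deposited log2 expression values, computed by RMA from Affymetrix mouse U74Av2 arrays per the labels and the submitters' processing notes. No source used here names the RMA version or says whether both batches were normalized together. The log base was read as 2 from the values' span of 2.30 to 14.12, and array medians lay between 5.88 and 5.99. Gene names came from the platform annotation and RefSeq symbols: 10833 probe sets named 1 gene, 396 several and 1193 none, and only the first kind was used.

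Testing required a value over the array's own 30th percentile on 3 or more of the arrays and covered 9249 probe sets. limma 3.58.1 (R 4.3.3) fitted 8 groups and batch over all 32 arrays, with Benjamini-Hochberg adjustment within each of 15 comparisons and a threshold of 0.05, and was tested on simulated data. No label used here states that each liver came from a separate mouse, so p-values measure only the spread between these samples. The number of arrays limits the precision.

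Named genes were the members, genes of the listed pathways past the threshold, and the 3 genes most like each member. The members and lists were chosen with earlier results of these data known. Alternatives covered the filter, batch, array weights, normalization, covariates, batches alone and each array left out.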

Additional observations from a re-analysis of the deposited data

Results flagged for a closer look

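Of 63 combinations of member probe set and group with 4 or 5 livers, 4 held a liver whose gap to its nearest neighbour was large for the range of its group, and chance gives about 1 in 20. Pdk4 read 10.87 in Cre minus 30 h C, against 5.32 to 6.02 in the other 3 livers of that group. Without that array the difference of 30 h minus 0 h in Cre minus livers was −0.31, against 0.87 with it. In Cre plus 40 h D, Acadm read 9.67, against 10.29 to 10.51 in the other 4 livers, and Cpt2 (95646_at) read 8.70, against 10.21 to 10.69. Cyp4a10 was lowest on that array too, at 4.47. Cpt2 read 11.07 in Cre minus 20 h A, against 10.52 to 10.58 in the other 3. The arrays Cre minus 30 h C and Cre plus 40 h D are 2 of the 3 with a mean correlation under 0.95 with their group.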

How the results depend on the processing

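Of 5400 member differences under the alternatives, 5083 kept their side of the threshold and their sign, 19 lost the call, 82 gained it, 0 called differences changed sign, and 216 changed sign without a call. The number of members called moved as follows. At 20 h against 0 h, Cre plus livers (1 reported) had 0 in PHX2 alone, 4 in PHX3 alone, 4 with array weights, 0 without the batch term and 2 without the 3 arrays of low correlation, and Cre minus livers (2 reported) had 0 in PHX2 alone, 7 with weights, 6 with only the compared groups fitted and 1 without the batch term. At 30 h (0 reported in either) Cre plus livers had 1 in PHX3 alone, 4 with weights, 2 with the compared groups and 2 without the 3 arrays, and Cre minus livers had 2, 3, 2 and 1, and 2 after quantile normalization. At 40 h Cre plus livers had 2 in PHX3 alone and 1 without the 3 arrays, and Cre minus livers 1 in PHX3 alone, 2 with weights, 5 with the compared groups and 1 without the 3 arrays. Between 30 and 40 h, Cre plus livers had 1 with weights and 1 without the 3 arrays. Between genotypes, 30 h had 5 with weights and 4 without the 3 arrays, 40 h had 1 after quantile normalization, and the 30 h interaction had 4 with weights. The cause was not tested.

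With 1 array left out, counts ran from 0 to 3 in Cre plus and 0 to 2 in Cre minus livers at 20 h, 0 to 1 and 0 to 2 at 30 h, 0 to 1 in Cre plus livers at 40 h, and 0 to 1 between genotypes at 40 h. With the replicate block, 1 member was called between genotypes at 40 h, Acadm at −0.53 (adjusted p = 0.0270). Livers of the same letter showed no common deviation (mean r −0.036 over 105 pairs, 0.009 over 342 other pairs), so the letters give no pairing. Over all probe sets the calls moved too: array weights gave 2662 against 839 reported in Cre plus livers at 20 h, 2095 against 682 in Cre minus livers at 20 h and 2436 against 26 between genotypes at 30 h, and leaving out 1 array brought them as low as 265, 331 and 4.

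Over 45 settings other than the reported one, the 20 h call of Cyp4a10 in Cre minus livers held in 41 (adjusted p 0.0013 to 0.453). That of Acadl held in 39 in Cre plus livers (7.6e-05 to 0.860) and 36 in Cre minus livers (0.0018 to 0.295). The differences were positive throughout.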
